A study of Mus musculus with 6 samples.

Results

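The genes described here encode kinases, phosphatases and adaptors of 3 signalling arms, JAK-STAT, MAP kinase and PI3K, together with the protein kinase C family. They were chosen by symbol, with earlier results of these data known. The stems were Jak, Tyk2, Stat, Socs, Cish, Pias, Pim, Ptpn, Map2k to Map4k, Mapk, Pik3, Akt and Prkc, with Jak2 left out. Each gene is represented by its brightest probe set, and 69 genes were found among 10366 genes with a single-symbol probe set. RefSeq lists 126 protein-coding genes with such a symbol, and those beyond the 69 were not analysed here. Expression was measured on whole-transcript gene arrays in LKS-Slam marker positive cells, a sorted mouse bone marrow population enriched for hematopoietic stem cells. Mice of the Zeb2-KO group had Zeb2 flanked by loxP sites together with Mx1-Cre (Zeb2Δ/ΔMx1-Cre), and the control group was C57Bl/6 WT. Mice of both groups were given pIC, which induces interferon, when 6 weeks old, and cells were taken after another 8 weeks, at 14 weeks. Each group comprised 3 arrays, named as biological replicates. Mx1-Cre is driven by an interferon-responsive promoter and acts in many cell types.

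Zeb2, the targeted gene, had log2 intensities of 7.79, 9.13 and 8.96 in Zeb2-KO-labelled replicates 1 to 3 and 6.58, 7.51 and 7.34 in WT. It was thus higher where the deletion was labelled, by 1.48 (SE 0.40, limma adjusted p = 0.581), and whether its probe set lies in the deleted part is not known here. All directions below compare Zeb2-KO-labelled with WT arrays and rest on the labels. The arrays differed in spread, with interquartile ranges of log2 values of 1.83, 2.40 and 2.11 in the Zeb2-KO-labelled arrays and 1.59, 2.03 and 1.77 in WT. Genes of the sorting gate included Kit (9.0 to 10.23), whereas Slamf1 ran from 5.76 in WT replicate 1 to 9.01. In sorted bulk RNA, fewer cells of a type and less RNA per cell cannot be told apart.

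Cytokine receptors carry Janus kinases on their inner tails. Binding of a cytokine activates these kinases, which phosphorylate STAT factors, and the STATs switch on targets that include their own SOCS inhibitors. The same receptors, and receptor tyrosine kinases such as Kit, feed the MAP kinase cascade, in which a MAP3K activates a MAP2K and the MAP2K activates a MAP kinase. They also feed PI3K, whose lipid product recruits AKT. Tyrosine phosphatases of the Ptpn family help set how long such signals last, and protein kinase C isoforms respond to lipid messengers. In hematopoietic stem cells these routes carry the signals of thrombopoietin, stem cell factor and interferons.

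None of the 69 genes (0) passed an adjusted p of 0.05 over the 14610 probe sets tested (limma, Benjamini-Hochberg), where 0.0137% of all probe sets did. The smallest p belonged to Ptpn4, a tyrosine phosphatase that lay higher in the Zeb2-KO-labelled arrays by 1.39 on the log2 scale. Protein kinase C beta (Prkcb) and the phosphatase SHP-1 (Ptpn6) differed by -0.93 and -0.65, without overlap between groups. An unadjusted p under 0.05 was reached by 7 of the 69 genes (10.1%), against 7.02% of all probe sets. Of these, 4 lay higher and 3 lower, where 5.69% of all probe sets lay higher and 1.33% lower at that p. The groups did not overlap in 11 of the 69 genes (15.9%), against 13.2% of all probe sets. Of those, 6 lay higher and 5 lower, where 6.9% and 6.26% of all probe sets did so. The shares of 10.1% and 15.9% are near the background. The 3 lower genes at an unadjusted p under 0.05 (Prkcb, Prkcz and Ptpn6) are a larger share of the 69 than 1.33%. For Prkcz the identity of the probe set is uncertain.

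A difference of at least 1.5-fold was seen in 13 of the 69 genes, against 16.6% of all probe sets, and of at least 2-fold in 4, against 4.36%. The median difference of the 69 genes was 0.14 and 39 were above 0, where the median over all probe sets was -0.089 and 44.6% were above 0. With quantile normalization the median of the 69 genes was -0.014 and 34 were above 0. The count below an unadjusted p of 0.05 moved with single arrays. It was 14 (20.3%, against 11.2% of all probe sets) without Zeb2-KO-labelled replicate 1, 4 (5.8%, against 5.03% of all probe sets) without Zeb2-KO-labelled replicate 3 and 11 (15.9%, against 11.4% of all probe sets) without WT replicate 2. The count without overlap was 36 (52.2%, against 45% of all probe sets) without Zeb2-KO-labelled replicate 1. It was 31 (44.9%, against 36.1% of all probe sets) without WT replicate 2 and 17 (24.6%, against 17% of all probe sets) without WT replicate 1.

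**Figure D1:**
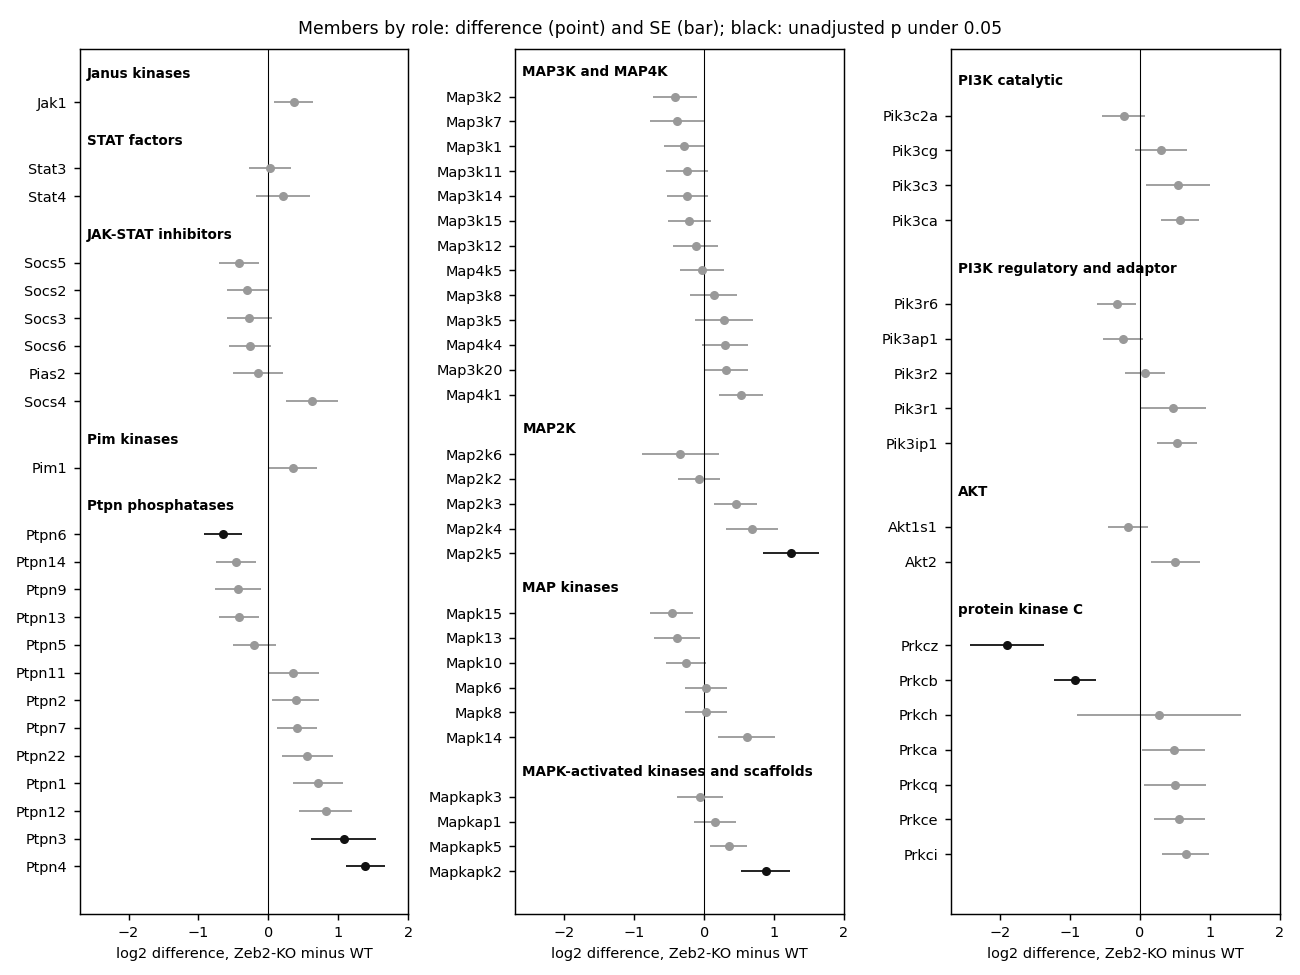
Difference of each of the 69 genes in log2 intensity, Zeb2-KO-labelled minus WT arrays (horizontal axis, with limma SE), grouped by role. The differences ran from -1.90 (Prkcz, a probe set of uncertain identity) to 1.39 (Ptpn4), and 7 genes had an unadjusted p under 0.05.

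The JAK-STAT arm held 10 measured genes, none with an unadjusted p under 0.05 in its brightest probe set, and a median difference of -0.062. The dimmer Socs6 probe set, given below, did reach that p. Jak1, the kinase shared by interferon and interleukin-6 family receptors, stood at 9.35, 9.60 and 9.39 in the Zeb2-KO-labelled arrays and at 8.84, 9.20 and 9.21 in WT. All Zeb2-KO-labelled arrays lay above all WT arrays, by a mean of 0.36 (SE 0.28, limma adjusted p = 0.673) that was 0.17 with quantile normalization. Stat3, which gp130-type receptors activate, stood at 7.86, 8.13 and 8.01 against 7.57, 8.27 and 8.10. Its groups overlapped, the difference was 0.020 (SE 0.30), and its sign turned under 6 of 17 alternatives. Stat4, best known from interleukin-12 signalling in lymphocytes, differed by 0.21 (SE 0.39), with WT replicate 2 (8.11) the highest array. Without WT replicate 1 its difference was -0.037, and without WT replicate 2 it was 0.65. Pim1, a survival kinase that STAT5 induces, differed by 0.36 (SE 0.34), and by 0.093 without WT replicate 3.

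Of the 6 inhibitors of this arm, 5 lay lower and 1 higher (16.7%, against 44.6% of all probe sets), with a median of -0.27. The 5 counted as lower include Socs2 and Socs6, which each lay higher in another probe set. Socs5, a suppressor of cytokine signalling, stood at 6.97, 7.42 and 7.33 against 7.86, 7.58 and 7.54. Its groups did not overlap, and the difference was -0.42 (SE 0.28, limma adjusted p = 0.673). Socs4 lay on the other side, at 6.87, 7.82 and 8.32 against 6.89, 7.18 and 7.07, a difference of 0.62 (SE 0.37) that was 1.02 without Zeb2-KO-labelled replicate 1 and 0.30 without Zeb2-KO-labelled replicate 3. Socs3, the feedback inhibitor that STAT3 induces, differed by -0.27 (SE 0.32), and by 0.029 once the interquartile range of each array was added as a covariate (array spread). Pias2, a SUMO ligase that restrains STATs, differed by -0.15 (SE 0.36). Socs2 differed by -0.30 in its brighter probe set and by 0.53 in the other. Socs6 differed by -0.26 in its brighter probe set. In the other it differed by 0.97 (SE 0.38, limma unadjusted p = 0.0258, adjusted p = 0.662), and the groups did not overlap. For the brighter Socs6 and the dimmer Socs2 probe set, 0 of the 10 nearest annotated identifiers belong to the chromosome of the named gene. What they measure is therefore uncertain. For the dimmer Socs6 probe set, 4 of 10 did.

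The promoter of Socs3 is shown because it carries the STAT motif TTCNNNGAA, which reads the same on both strands. It covers chr11:117969367-117969616 (GRCm38.p6, minus strand), the 250 bases before the RefSeq start. Capitals mark the motif, which begins 154 bases before the start. Among genes of the selection with a RefSeq promoter, 5 of 54 held this motif (9.26%), against 8.13% of 27025 genes. The other 4 were Akt2, Map2k4, Mapk14 and Ptpn22, and in all 5 the groups overlapped.
Socs3: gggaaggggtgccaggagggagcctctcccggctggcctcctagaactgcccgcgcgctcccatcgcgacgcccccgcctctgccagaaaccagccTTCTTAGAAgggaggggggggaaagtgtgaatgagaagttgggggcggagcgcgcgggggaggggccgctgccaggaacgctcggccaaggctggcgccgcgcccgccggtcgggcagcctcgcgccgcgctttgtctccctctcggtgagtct

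Among the Ptpn phosphatases, 3 of 13 genes had an unadjusted p under 0.05 (23.1%, against 7.02% of all probe sets). Of the 13, 8 lay higher (61.5%, against 44.6% of all probe sets), and the median difference was 0.39. Ptpn4, a phosphatase with FERM and PDZ domains, stood at 7.01, 7.15 and 7.44 in the Zeb2-KO-labelled arrays and at 5.90, 5.79 and 5.76 in WT. The gap between groups was wider than the spread within either (0.22 and 0.072, SD, n = 3). The difference was 1.39 (SE 0.27), or 2.62-fold, with a limma unadjusted p of 0.00038 and an adjusted p of 0.331. It ran from 1.27 to 1.62 over 17 alternatives, with an unadjusted p under 0.05 in each. Ptpn6 encodes SHP-1, a phosphatase of blood cells that dampens signals from cytokine receptors, Kit and the B cell receptor. It stood at 8.87, 8.74 and 8.87 against 9.68, 9.51 and 9.25. The Zeb2-KO-labelled arrays lay in a narrow band below all WT arrays, with a difference of -0.65 (SE 0.27, limma adjusted p = 0.673). Its unadjusted p was under 0.05 in 9 of 17 alternatives, and without WT replicate 1 the difference was -0.55.

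Ptpn3, a close relative of Ptpn4, stood at 7.34, 7.58 and 8.91 against 6.76, 6.21 and 7.62 in its brightest probe set. The groups overlapped, since WT replicate 3 lay above Zeb2-KO-labelled replicates 1 and 2. The difference was 1.08 (SE 0.47, limma adjusted p = 0.673), 0.59 without Zeb2-KO-labelled replicate 3 and 0.57 for the mean of its 9 probe sets. Its unadjusted p was under 0.05 in 8 of 17 alternatives. Across these probe sets the difference ran from -0.15 to 1.82. The largest, probe set 10513158, stood at 6.51, 5.06 and 7.41 against 4.39, 4.40 and 4.73, without overlap (limma adjusted p = 0.581). Probe set 10513154 differed by 1.24 and 10513166 by 0.92, while 10513152 and 10513160 differed by 0.019 and 0.12. Zeb2-KO-labelled replicate 3 was the highest array in 5 of the 9 probe sets, 10513152, 10513154, 10513156, 10513158 and 10513166, among them 10513152 with a difference near 0.

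**Figure D2:**
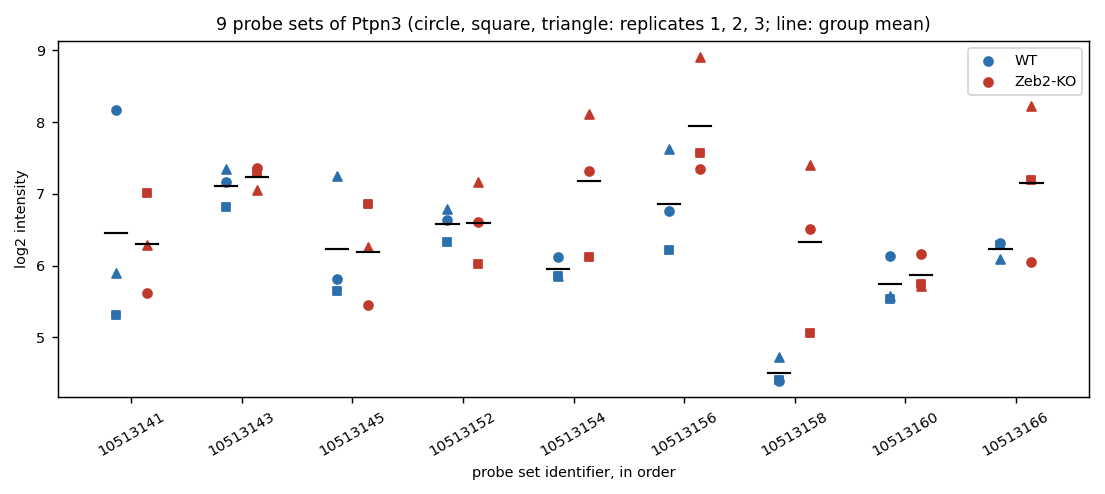
Log2 intensity of the 9 probe sets of Ptpn3 in each array (vertical axis). The difference between groups ran from -0.15 to 1.82 between probe sets of this gene.

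Ptpn11, which encodes SHP-2 and carries growth factor signals on to Ras, stood at 7.23, 8.30 and 8.08 against 7.03, 7.87 and 7.64. The groups overlapped, and the difference of 0.36 (SE 0.36) was 0.12 without WT replicate 1 and -0.24 after adjustment for array spread. Further phosphatases were picked out after their values were seen. Ptpn12 differed by 0.82 (SE 0.38), and Ptpn1, which acts on JAK2 and the insulin receptor, by 0.71 (SE 0.36). Ptpn2, a phosphatase of JAK1, differed by 0.39 in its brighter probe set and by -1.02 in the other, where WT replicate 2 stood at 8.49 and the other arrays at 5.41 to 5.94. Ptpn14 was lower without overlap, at 6.80, 6.56 and 6.72 against 7.34, 7.31 and 6.80, a difference of -0.46 (SE 0.29), with Zeb2-KO-labelled replicate 1 and WT replicate 3 nearly equal.

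Promoters of the 3 phosphatases with an unadjusted p under 0.05 are shown because Zeb2 binds E-boxes of the form CACCTG, or CAGGTG on the other strand. The windows are the 250 bases before the RefSeq start (GRCm38.p6), all on the minus strand and printed 5′ to 3′, at chr1:119837072-119837321 for Ptpn4, chr6:124738710-124738959 for Ptpn6 and chr4:57301838-57302087 for Ptpn3. Capitals mark the E-box, which begins 124 bases before the start in Ptpn6 and 181 bases before it in Ptpn3. The Ptpn4 window does not hold these letters. In the selection 9 of 54 genes held the E-box (16.7%), against 19.4% of 27025 genes. Ptpn6, which lay lower, and Ptpn3, which lay higher, both hold it.
Ptpn4: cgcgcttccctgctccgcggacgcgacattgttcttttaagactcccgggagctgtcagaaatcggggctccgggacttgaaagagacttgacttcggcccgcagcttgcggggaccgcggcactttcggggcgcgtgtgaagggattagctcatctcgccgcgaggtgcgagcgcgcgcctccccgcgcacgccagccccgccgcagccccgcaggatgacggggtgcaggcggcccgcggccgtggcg
Ptpn6: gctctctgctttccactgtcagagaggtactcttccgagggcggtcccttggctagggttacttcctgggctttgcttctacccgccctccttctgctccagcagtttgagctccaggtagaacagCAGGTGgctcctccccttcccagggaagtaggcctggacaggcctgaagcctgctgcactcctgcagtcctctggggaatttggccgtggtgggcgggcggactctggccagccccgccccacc
Ptpn3: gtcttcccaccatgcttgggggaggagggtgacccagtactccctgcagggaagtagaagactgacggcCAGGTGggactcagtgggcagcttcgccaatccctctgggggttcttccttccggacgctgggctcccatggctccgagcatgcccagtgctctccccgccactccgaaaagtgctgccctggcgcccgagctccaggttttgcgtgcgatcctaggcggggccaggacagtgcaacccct

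The MAP kinase arm held 28 genes, of which 14 lay higher and 14 lower. Map2k5 and Mapkapk2 had an unadjusted p under 0.05 (7.14%, against 7.02% of all probe sets), both higher. Map2k5 encodes MEK5, which activates ERK5, and stood at 7.06, 8.01 and 8.0 in the Zeb2-KO-labelled arrays against 6.03, 7.20 and 6.13 in WT. The groups overlapped through WT replicate 2 alone. The difference was 1.24 (SE 0.40, limma adjusted p = 0.62), or 2.36-fold, and 0.57 after adjustment for array spread. Mapkapk2 encodes MK2, the kinase below p38 that stabilises cytokine messages. It stood at 6.65, 7.74 and 7.39 against 6.13, 6.18 and 6.83, so that WT replicate 3 lay above Zeb2-KO-labelled replicate 1. The difference was 0.88 (SE 0.35, limma adjusted p = 0.671), and 0.51 after adjustment for array spread. Its unadjusted p was under 0.05 in 11 of 17 alternatives, and that of Map2k5 in 16.

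At the top of the cascade, 8 of 13 MAP3K and MAP4K genes lay lower and 5 higher (38.5%, against 44.6% of all probe sets). Their median was -0.12, and none had an unadjusted p under 0.05. Map4k1, the hematopoietic progenitor kinase HPK1, differed by 0.53 (SE 0.31) and Map3k2, an activator of MEK5, by -0.42 (SE 0.31). The Map3k2 difference was -0.67 without WT replicate 1 and -0.23 without WT replicate 3. Map3k1, an activator of the JNK branch, differed by -0.29 (SE 0.29), and by 0.030 after adjustment for array spread. Map2k4, which activates JNK and p38, stood at 5.93, 6.88 and 6.62 against 5.45, 6.49 and 5.45. Its difference was 0.68 (SE 0.38), 1.03 without WT replicate 2 and 0.050 after adjustment for array spread. Map2k3, an activator of p38, was higher without overlap, at 6.03, 6.65 and 6.03 against 5.44, 6.02 and 5.91, a difference of 0.45 (SE 0.31). WT replicate 2 lay just under the lowest Zeb2-KO-labelled arrays in Map2k3.

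Of the MAP kinases themselves, 3 of 6 lay higher. Mapk14, p38 alpha, stood at 8.12, 8.60 and 8.95 against 7.52, 8.85 and 7.48, with WT replicate 2 inside the range of the Zeb2-KO-labelled arrays. Its difference was 0.61 (SE 0.41), 1.06 without WT replicate 2 and 0.37 without WT replicate 3. Mapk8, which encodes JNK1, differed by 0.025 (SE 0.30), and its sign turned under 5 of 17 alternatives. Mapk15, an atypical ERK, differed by -0.47 (SE 0.30), and by -0.27 without WT replicate 1. Mapkapk5, another substrate kinase of p38, was higher without overlap at 7.14, 7.02 and 7.17 against 6.85, 6.58 and 6.84, a difference of 0.35 (SE 0.27).

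**Figure D3:**
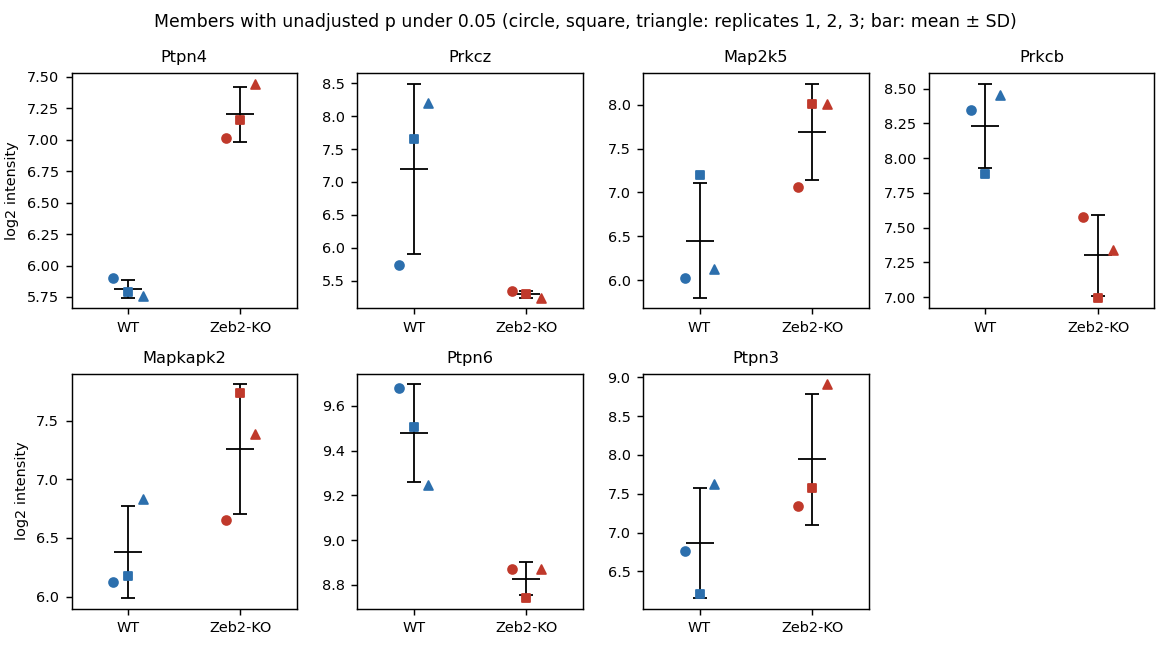
Log2 intensity per array (vertical axis, own scale for each gene) of the 7 genes with an unadjusted p under 0.05, with mean ± SD of 3 arrays. The groups do not overlap in Ptpn4, Prkcz, Prkcb and Ptpn6, and overlap in Map2k5, Mapkapk2 and Ptpn3.

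The PI3K and AKT arm held 11 genes, 7 of them higher (63.6%, against 44.6% of all probe sets), with a median of 0.30. None had an unadjusted p under 0.05. Pik3ca, the widely expressed catalytic subunit p110 alpha, stood at 6.84, 7.21 and 7.04 in the Zeb2-KO-labelled arrays against 6.61, 6.38 and 6.39 in WT. The groups did not overlap and the difference was 0.57 (SE 0.27, limma adjusted p = 0.673). It ran from 0.48 to 0.74 over 17 alternatives. Pik3ip1, a membrane protein that inhibits p110, was likewise higher without overlap, at 7.64, 7.72 and 7.94 against 6.96, 7.58 and 7.16, a difference of 0.53 (SE 0.29). The catalytic subunit and this inhibitor lay on the same side. For the Pik3ip1 probe set, however, only 4 of the 10 nearest annotated identifiers belong to the gene's chromosome.

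Pik3c3, the class III kinase of autophagy (VPS34), stood at 8.18, 8.22 and 8.23 against 6.99, 8.92 and 7.08. The Zeb2-KO-labelled arrays were nearly alike (SD 0.031, n = 3) and the WT arrays spread widely (SD 1.09), with WT replicate 2 the highest of all 6. The difference of 0.55 (SE 0.46) was 1.17 without WT replicate 2 and -0.022 after adjustment for array spread. Pik3r1, the regulatory subunit p85 alpha, stood at 8.35, 9.11 and 9.06 against 7.63, 9.55 and 7.93, again with WT replicate 2 highest. Its difference of 0.47 (SE 0.47) was 1.06 without WT replicate 2, 0.11 without WT replicate 1 and -0.33 after adjustment for array spread. Pik3r6, a partner of p110 gamma, differed by -0.33 (SE 0.28). Akt2, a kinase best known for insulin signalling, differed by 0.51 (SE 0.36), and by 0.16 without WT replicate 1. For that Akt2 probe set 0 of the 10 nearest annotated identifiers belong to the gene's chromosome, and its other probe set differed by 0.29 (SE 0.29). Akt1s1, the mTORC1 subunit PRAS40 and not a kinase, differed by -0.16 (SE 0.29), and by 0.089 after adjustment for array spread.

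Among 7 protein kinase C genes, 2 lay lower with an unadjusted p under 0.05 (28.6%, against 1.33% of all probe sets) and the other 5 lay higher. For 1 of these 2, Prkcz, the identity of the probe set is uncertain. Prkcb, the beta isoform that acts below the B cell receptor, stood at 7.57, 7.0 and 7.34 in the Zeb2-KO-labelled arrays and at 8.35, 7.89 and 8.46 in WT. The groups did not overlap. The difference was -0.93 (SE 0.30, limma adjusted p = 0.62), its unadjusted p stayed under 0.05 in all 17 alternatives, and it was -0.59 after adjustment for array spread. Prkcz names the probe set with the lowest difference, at 5.34, 5.30 and 5.24 against 5.73, 7.65 and 8.20. The Zeb2-KO-labelled arrays were alike (SD 0.051), and WT replicate 1 lay near them, apart from the other WT arrays. The difference was -1.90 (SE 0.52, limma adjusted p = 0.581), and without WT replicate 1 it was -2.63 (limma adjusted p = 0.00512). Of the 10 nearest annotated identifiers 0 belong to the chromosome of Prkcz, so these values may not be those of isoform zeta.

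Prkci, an atypical isoform, stood at 6.94, 7.96 and 7.88 against 6.99, 6.75 and 7.08, a difference of 0.65 (SE 0.33). Prkca, the classical alpha isoform, differed by 0.49 (SE 0.45), by 1.01 without Zeb2-KO-labelled replicate 1 and by -0.36 after adjustment for array spread. Prkch, the eta isoform, was chosen for its spread, at 4.03, 9.11 and 8.08 against 8.0, 7.75 and 4.67 in its brighter probe set and at 6.66, 7.22 and 7.05 against 6.40, 7.14 and 7.16 in the other. Zeb2-KO-labelled replicate 1 and WT replicate 3 were thus low in the brighter Prkch probe set and not in the other.

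Markers of other cell types also differed between the groups. All 12 measured B lymphoid markers lay lower in the Zeb2-KO-labelled arrays, and their mean was 7.08, 6.35 and 6.88 there and 8.01, 7.16 and 7.64 in WT, without overlap. In both groups replicate 2 was the lowest array in Prkcb, in the B lymphoid mean and in the monocyte and dendritic cell mean. Over all probe sets, Zeb2-KO-labelled replicate 2 was the lowest of the 6 arrays in 32.5% and WT replicate 2 in 8.3%. Of the Zeb2-KO-labelled arrays, replicate 1 was the highest in Prkcb and in the B lymphoid mean. In WT the highest was replicate 3 in Prkcb and replicate 1 in the B lymphoid mean. The lowest array of Ptpn6 was replicate 2 in the Zeb2-KO-labelled group and replicate 3 in WT. For Ptpn4 it was replicate 1 in the Zeb2-KO-labelled group and replicate 3 in WT. Of the 12 B lymphoid markers, 4 did not overlap between groups (33.3%, against 13.2% of all probe sets). Their differences ran from -2.06 (Ms4a1) to -0.11 (Vpreb1). The B cell antigen gene Ms4a1 stood at 6.82, 5.13 and 5.89 against 8.07, 7.36 and 8.58, without overlap. The mean of 10 monocyte and dendritic cell markers was 7.75, 7.24 and 7.37 against 8.09, 7.71 and 7.98, with 9 of them lower and overlapping means. The mean of 8 stromal and endothelial markers was 6.58, 6.40 and 6.31 against 6.74, 6.68 and 6.90, without overlap, with 7 of them lower. The T and NK lymphoid, granulocyte and stem cell gate means overlapped. Single stem cell gate genes went opposite ways, and 7 of 13 did not overlap between groups (53.8%, against 13.2% of all probe sets). Of these, 4 lay higher, among them Slamf1 (1.30), and 3 lower, among them Cd48 (-1.02). The megakaryocyte and platelet mean was 7.69, 8.44 and 7.74 against 7.01, 7.04 and 6.68, without overlap, with 12 of 13 markers higher. All 7 erythroid markers lay higher, and their mean was 7.27, 7.88 and 7.58 against 6.79, 6.52 and 6.63, without overlap. In 8 of these 13 and 4 of these 7 markers the groups did not overlap (61.5% and 57.1%, against 13.2% of all probe sets). All these counts of markers higher or lower stand beside 44.6% of all probe sets higher. The part of these cells in the values of Prkcb, Ptpn6 and Ptpn4 was not tested.

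**Figure D4:**
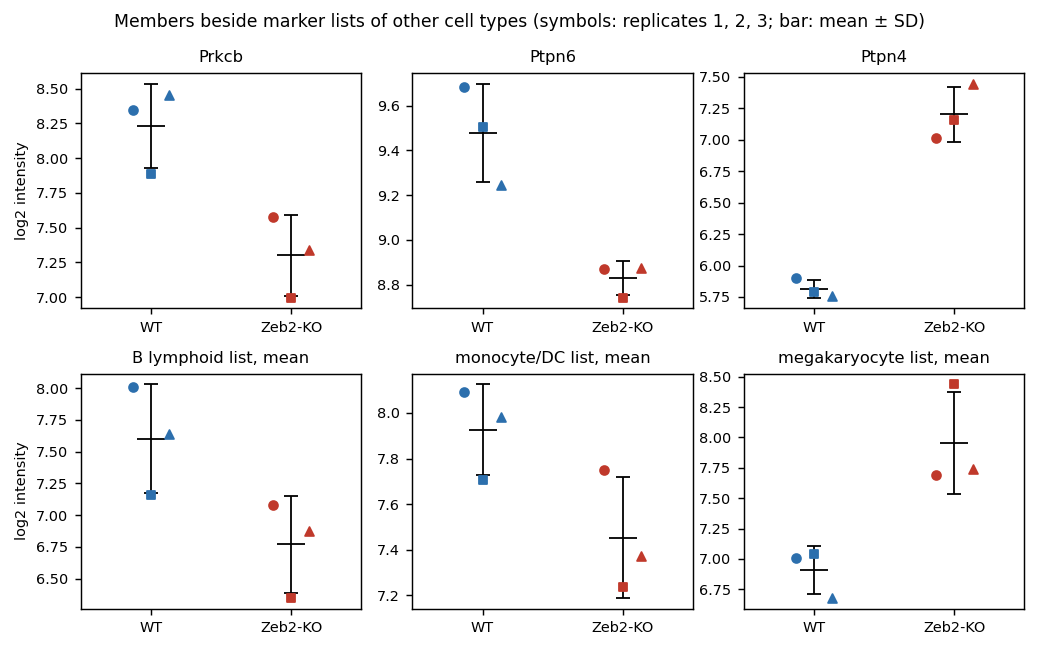
Log2 intensity per array (vertical axis, own scale for each panel) of Prkcb, Ptpn6 and Ptpn4 beside the means of marker lists of other cell types. Prkcb, Ptpn6 and the B lymphoid mean are lower in the Zeb2-KO-labelled arrays, and Ptpn4 is higher. The highest WT array differs between Prkcb and the B lymphoid mean. The part of other cells in these values was not tested.

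WT replicate 2 stood apart from the other WT arrays in several genes, a pattern noticed in the values. In 9 of the 69 genes (13%) it lay at least 1 log2 unit above both other WT arrays, against 4.35% of all probe sets. These were Map2k4, Map2k5, Map2k6, Mapk14, Pik3c3, Pik3cg, Pik3r1, Ptpn12 and Stat4, which belong to several roles. Map2k6, an activator of p38, stood at 8.03 in WT replicate 2 and at 5.65 to 6.40 in the other arrays. For each of the other 5 arrays, 0 or 1 gene lay as far above its group and 0 to 3 as far below.

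**Figure D5:**
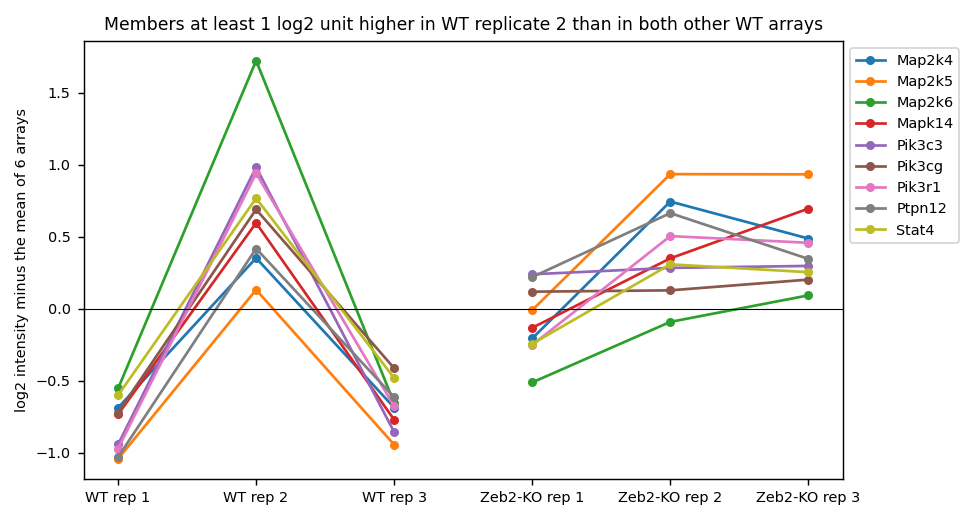
Log2 intensity minus the mean of the 6 arrays (vertical axis) in each array for the 9 genes in which WT replicate 2 lay at least 1 log2 unit above both other WT arrays. In WT replicate 2 all 9 lie above 0, and in WT replicates 1 and 3 all 9 lie below 0.

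Other genes of these pathways came from lists of symbols, and none passed the adjusted threshold. Of 11 measured receptors and receptor-proximal regulators of JAK-STAT signalling, 4 had an unadjusted p under 0.05 (36.4%, against 7.02% of all probe sets). Il4ra, the interleukin-4 receptor chain, stood at 7.76, 7.44 and 7.48 against 8.49, 8.04 and 8.47, without overlap, a difference of -0.77 (SE 0.28, limma adjusted p = 0.657). Il10ra, the interleukin-10 receptor chain, stood at 7.04, 5.86 and 6.55 against 8.68, 6.90 and 7.60, and its groups overlapped. The other two were Ifngr2 (-0.88), an interferon gamma receptor chain, and Jak2 (0.93), both with overlap. Of 7 JAK-STAT targets 0 reached that p, with Ccnd1, a G1 cyclin, at -0.47, Bcl3 at -0.31 and Myc at 0.46.

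Of 13 genes upstream in the Ras, Raf and ERK branch, 11 lay higher (84.6%, against 44.6% of all probe sets), with a median of 0.33. The 1 with an unadjusted p under 0.05 (7.69%, against 7.02% of all probe sets) was Rasgrp3, a Ras exchange factor that B cells use. Rasgrp3 stood at 6.38, 4.93 and 6.10 against 8.07, 6.71 and 6.71. Its groups did not overlap and the difference was -1.36 (SE 0.47, limma adjusted p = 0.656). Flt3, a receptor tyrosine kinase of progenitors, differed by 0.69 and Rasgrp2 by 0.64. Of 9 phosphatases and feedback inhibitors of the MAP kinases, 7 lay lower and 2 higher (22.2%, against 44.6% of all probe sets). Dusp8 differed by -0.46 and Spred2 by 0.45. Spred1, an inhibitor of Ras and Raf, had the only unadjusted p under 0.05 in that list (11.1%, against 7.02% of all probe sets). Spred1 stood at 7.07, 7.82 and 7.58 against 6.18, 7.10 and 6.22, a difference of 0.99 (SE 0.35, limma adjusted p = 0.656). Of 10 genes that ERK induces 0 reached that p. Jun stood at 9.82, 10.07 and 9.93 against 9.17, 9.68 and 9.60, higher without overlap, and Ier2, an immediate early gene, differed by 0.61.

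Of 13 partners of PI3K, AKT and mTOR, 9 lay higher (69.2%, against 44.6% of all probe sets), with a median of 0.26. Gsk3a, a kinase that AKT inhibits, had the only unadjusted p under 0.05 there (7.69%, against 7.02% of all probe sets). Gsk3a stood at 8.90, 8.42 and 9.17 against 8.24, 7.97 and 8.04, without overlap and with a difference of 0.75 (SE 0.30, limma adjusted p = 0.668). Rheb, the GTPase that activates mTORC1, differed by 1.26 (SE 0.67), with WT replicate 1 at 4.74 and the other arrays at 7.22 to 8.30. Phlpp1, an AKT phosphatase, differed by 0.34. Of 9 targets of FOXO factors, which AKT holds out of the nucleus, 7 lay higher (77.8%, against 44.6% of all probe sets). Gadd45a, a stress-response gene, had the only unadjusted p under 0.05 there (11.1%, against 7.02% of all probe sets). Gadd45a stood at 7.59, 7.88 and 8.19 against 6.98, 7.11 and 6.99, without overlap and with a difference of 0.86 (SE 0.28, limma adjusted p = 0.623). Txnip differed by 0.47 and the cell cycle inhibitor Cdkn1b by 0.45.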

How the data were processed

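Total RNA of sorted cells was hybridised to 6 arrays, 3 per group, per the labels' protocols. The authors deposited 1 intensity per probe set and array. The submitters' processing notes name RMA; its version is not given in the sources used here. The values look linear by their range, and log2 was computed from them. Of 20220 probe sets, 5610 with identifiers below the first annotated one were left out as controls. The other 14610 were tested in R 4.3.3 by lmFit and eBayes of limma 3.58.1, with Benjamini-Hochberg adjustment over all of them and 6.87 prior degrees of freedom. Differences are log2 values, Zeb2-KO-labelled minus WT, with limma's SE. The 3 arrays per group limit precision. Where nothing names separate litters, p-values measure the spread between these samples.

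The genes, lists and tests were chosen with earlier results of these data known. All 69 genes matched RefSeq (GRCm38.p6) by gene ID. Genes are named for an unadjusted p under 0.05, for 1 of the 2 smallest p in a role, or from 29 core genes, of which 15 were measured; up to 3 are named per pathway list, and every other gene named (among them Map2k3, Map2k6, Pias2, Pik3cg, Prkch, Prkci, Ptpn1, Ptpn12, Ptpn14, Ptpn2, Ptpn22, Socs6 and Ifngr2) after its values were seen. Alternatives were other normalizations, a filter on dim probe sets, the control block kept, variance priors, array weights, array spread as a covariate, a replicate block, the mean of a gene's probe sets and arrays left out. On simulated data with 200 changed probe sets the adjusted test recovered 5.6% of differences of 1 log2 unit and 65.6% of those of 2. The simulated noise was independent between probe sets and arrays, without the differences in array spread seen here. These rates may therefore not hold for these data.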

Additional observations from a re-analysis of the deposited data

How the results depend on the processing

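The count with an adjusted p under 0.05 was 10 with array weights, where the weight estimation stopped before converging, among 978 probe sets. It ran from 0 to 1 with 1 array left out (Prkcz without WT replicate 1). The count with an unadjusted p under 0.05 was 30 with array weights (32.8% of all probe sets), 14 with the replicate block (17.8%) and 12 without Zeb2-KO-labelled replicate 1 and WT replicate 1, which had raised Y-linked signal (8.28%). It ran from 4 to 14 with 1 array left out. The count without overlap was 42 without those 2 arrays, where 50% of all probe sets did not overlap, and ran from 11 to 36 with 1 array left out; fewer arrays leave less room for overlap. The median difference ran from -0.014 to 0.21 over all alternatives. Deviations from the group means correlated by 0.36, 0.41 and 0.047 between same-numbered arrays of the groups. Between arrays of different number the correlations ran from -0.375 to 0.030. The labels do not tie numbers to litters or days, so the replicate block is an alternative only.

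Changes of sign are listed here only for the 32 genes named by rule. Signs turned after adjustment for array spread in Akt1s1 (0.089), Map3k1 (0.030), Mapk8 (-0.11), Pik3c3 (-0.022), Pik3r1 (-0.33), Prkca (-0.36), Ptpn11 (-0.24), Socs3 (0.029), Stat3 (-0.26) and Stat4 (-0.37). They turned with quantile normalization in Mapk8 (-0.10) and Stat3 (-0.19), with array weights in Stat3 (-0.036), with the mean of a gene's probe sets in Socs2 (0.12), and without the arrays of raised Y-linked signal in Stat3 (-0.11). With 1 array left out Mapk8 ran from -0.091 to 0.24, Stat3 from -0.19 to 0.16 and Stat4 from -0.037 to 0.65. Over all 69 genes the direction was kept in 49 after adjustment for array spread and in 64 with quantile normalization. It was kept in 60 with array weights and in 66 with the mean of a gene's probe sets. Without the arrays of raised Y-linked signal it was kept in 63. The causes were not tested. The direction held in every alternative run for 21 of 32 genes named by rule.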
